A study of Mus musculus with 10 samples.

Results

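Contactins are adhesion proteins of the immunoglobulin superfamily that are tethered to the neuronal or glial surface by a lipid anchor. Contactin-associated proteins (Caspr proteins) are transmembrane proteins of the neurexin superfamily. On myelinated axons contactin 1 pairs with Caspr at the paranode, where myelin loops are sealed to the axon beside the node of Ranvier. Contactin 2 pairs with Caspr2 at the juxtaparanode, where potassium channels are gathered. The other contactins and Caspr proteins are best known for axon guidance, for synapse formation and as genes in which human variants accompany autism and epilepsy.

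Here 10 mouse genes of the 2 families were followed in the hippocampus: Cntn1, Cntn2, Cntn3, Cntn4, Cntn5 and Cntn6, and Cntnap1, Cntnap2, Cntnap4 and Cntnap5a. They were found by matching the Ensembl identifiers of the count table, without version numbers, to these symbols, and they are 10 of the 56884 genes in the table. The genes were chosen by name with results of the DHT against void comparison of these same mice already known. Their values in that comparison are therefore given as a description, and the adjusted p values printed for them come from the fit over all genes and support no statement about the families. The same families hold 3 further mouse genes, Cntnap3, Cntnap5b and Cntnap5c, which were read alongside.

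All 10 mice were ovary-intact P301S females (PS19; genotype hTau), which express human 1N4R Tau with the P301S mutation under the mouse Prnp promoter. At 6 months of age 5 of them received a subcutaneous tube holding 10 mm of dihydrotestosterone powder (DHT Implant), an androgen that aromatase cannot turn into estrogen, and 5 received the same tube empty (Void Implant). The hippocampus was taken 12 weeks later, at 9 to 9.5 months, and 1 bulk RNA-seq library was made per mouse. No mice without the transgene were among the samples analysed here, so both groups carry the same Tau allele and differ in the implant. Mice are named below by group and by the number their label carries (void 4, 5, 9, 10 and 11; DHT 1, 2, 3, 5 and 6).

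Total counts were 27188854 to 47113661 per library with void and 33523527 to 45947784 with DHT. The void libraries carry the lower library numbers and the DHT libraries the higher ones, so an effect of library position cannot be told apart from one of the implant. All 10 listed hippocampal marker genes, among them Prox1 and Neurod6, were detected in every mouse. The 12 choroid plexus markers summed to 112 to 1814 CPM (the count scaled to a common library size after TMM normalisation) with void and to 2009 to 2818 with DHT, and all 12 were higher with DHT. These ranges did not overlap, so the fits below with a choroid plexus covariate cannot tell choroid plexus content apart from the implant. The hippocampal markers summed to 1303 to 1978 CPM with void, lowest in void 5, and to 1590 to 2064 with DHT. The 8 thalamic markers summed to 124 to 173 and 127 to 178 CPM. The 8 striatal markers summed to 95.6 to 113 CPM with void and 114 to 143 with DHT, without overlap. Of these 3 were higher with DHT and 5 lower, and Ppp1r1b alone was called (log2 fold change 0.76, adjusted p = 0.0156, edgeR quasi-likelihood test). The part of other tissue in the members' values was not tested. The 10 microglial markers summed to 448 to 538 CPM with void and 656 to 1005 with DHT, and 8 of them were called higher. The 12 neuronal markers summed to 11529 to 12883 CPM with void and 10507 to 12787 with DHT, with 11 of 12 lower and 0 called by edgeR or DESeq2 (1 lower at an unadjusted p under 0.05). In bulk tissue, fewer cells of a type and less RNA per cell cannot be told apart.

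The members spanned a wide range of RNA levels in the hippocampus, and the genes whose proteins act on the myelinated axon led it. Levels of different genes were compared per kilobase of exon (CPM per kb, over the union of each gene's exons). Cntn1 had the highest level at 69.4 ± 2.78 CPM per kb (SD, n = 10), followed by its paranodal partner Cntnap1 at 46.5 ± 7.10. The juxtaparanodal pair came next, Cntnap2 at 18.6 ± 1.17 and Cntn2 at 17.5 ± 2.34. These 4 genes held 86.8% of the summed level of the 10 members.

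Below them stood a group of 4 genes of like level. Cntnap5a was at 6.54 ± 1.11 CPM per kb, Cntnap4 at 5.21 ± 0.642, Cntn3 at 4.59 ± 0.611 and Cntn4 at 4.22 ± 0.506 (SD, n = 10 each). Cntn6 at 1.35 ± 0.299 and Cntn5 at 1.13 ± 0.207 were the lowest, and Cntn1 exceeded Cntn5 by 61.5-fold. Of the genes outside the list, Cntnap5c was at 5.82 ± 0.958 CPM per kb, Cntnap5b at 4.84 ± 0.927 and Cntnap3 at 1.56 ± 0.378.

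Neighbours in this order were not always apart. The ranges over the 10 mice did not overlap between Cntn1 and Cntnap1, between Cntnap1 and Cntnap2, between Cntn2 and Cntnap5a, or between Cntn4 and Cntn6. They overlapped in each of the other 5 neighbouring pairs. Cntnap2 was above Cntn2 in 5 of 10 mice and below it in the other 5, so these genes had no fixed order. Cntnap4 was above Cntn3, Cntn3 above Cntn4, and Cntn6 above Cntn5 in 8 of 10 mice each, and Cntnap5a was above Cntnap4 in all 10. The order also depended on the length used. Divided by the longest annotated transcript, 5 of the 10 members kept their rank, and Cntn4 moved ahead of Cntnap4, Cntnap5a and Cntn3. Cntnap4 then stood ahead of Cntnap5a, and Cntn2 ahead of Cntnap2, the reverse of the order by mean given above.

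**Figure D1:**
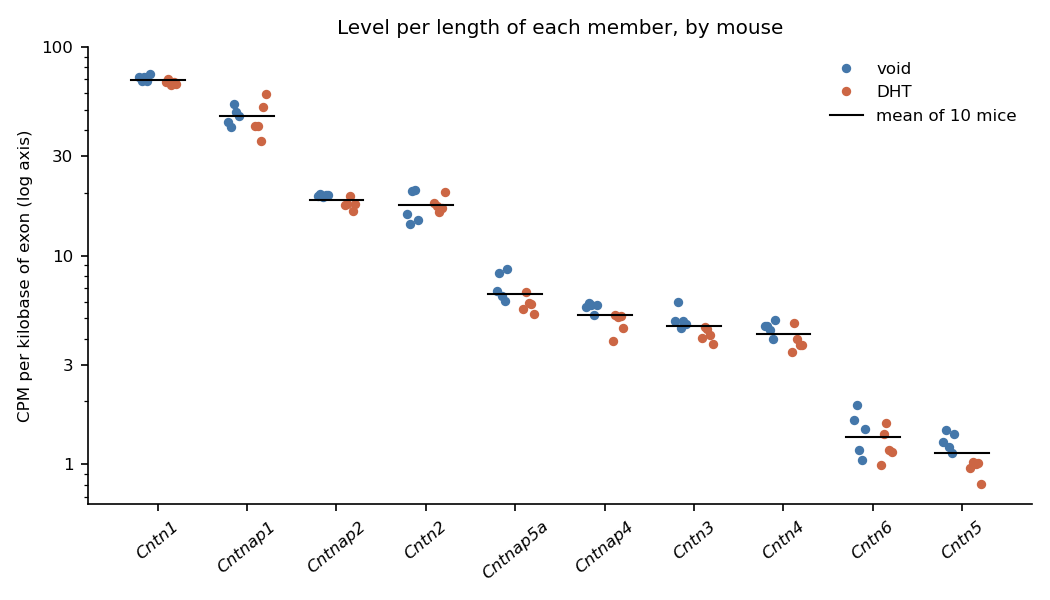
Level per length of the 10 members. The vertical axis is CPM per kilobase of exon on a log scale, each point is 1 mouse (blue void, orange DHT) and the black line is the mean of 10 mice. Cntn1, Cntnap1, Cntnap2 and Cntn2 stand above the rest, and Cntn6 and Cntn5 lie lowest.

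The genes of the paranodal pair, contactin 1 and Caspr, and Cntn2 had the 3 smallest differences between groups among the members. Cntn1, which brings Caspr to the axonal surface, was at 679.5, 646, 679, 647 and 702 CPM in void 4, 5, 9, 10 and 11, and at 642, 665.5, 618, 643 and 626 CPM in DHT 1, 2, 3, 5 and 6. The groups overlapped through DHT 2 alone, since the other 4 DHT mice lay below every void mouse, and void and DHT mice were close together. On the log2 scale the difference (DHT minus void) was -0.07 with a standard error of 0.05 (adjusted p = 0.523, edgeR quasi-likelihood test with Benjamini-Hochberg adjustment, as for every adjusted p below unless another tool is named).

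Cntnap1, which encodes Caspr, was at 258, 243, 315, 286 and 275 CPM in the void mice and at 246, 247, 208, 302 and 351 CPM in the DHT mice, in the same order of mice as for Cntn1. The DHT mice held both the lowest value, in DHT 3, and the highest, in DHT 6, so the DHT range enclosed the void range. Its log2 fold change, -0.02, was smaller than the standard error of 0.13. The annotated exons of Cntnap1 share 233 bases with those of Plekhh3 on the other strand, and without stated strand handling reads there cannot be told apart, but Plekhh3 had 179 to 363 counts against 7595 to 12185 for Cntnap1. The ratio of Cntn1 to Cntnap1 per length was 1.53 ± 0.143 in void mice and 1.52 ± 0.297 in DHT mice (SD, n = 5 each). This ratio ranged from 1.34 to 1.66 with void and from 1.11 in DHT 6 to 1.85 in DHT 3.

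The juxtaparanodal pair comprises Cntn2 and Cntnap2. Cntn2, made by neurons and by oligodendrocytes, was at 147, 131.5, 190.1, 192 and 138 CPM in void 4, 5, 9, 10 and 11 and at 165.5, 162, 151, 158 and 188 CPM in DHT 1, 2, 3, 5 and 6. Void 9 and void 10 were above every DHT mouse and the other 3 void mice below every DHT mouse, so the void group lay on both sides of the DHT group. Cntn2 was the 1 member with a log2 fold change above 0, at 0.05 with a standard error of 0.11. The 12 myelin markers summed to 3691, 3769, 4041, 4609 and 3339 CPM in the same void mice, and void 10 and void 9 were again the highest. In the DHT mice that sum was 4156 to 4468 CPM. All 12 myelin markers were higher with DHT and 0 were called (5 at an unadjusted p under 0.05, and 0 by DESeq2). The part of myelin content in the Cntn2 values was not tested.

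Cntnap2 encodes Caspr2, which gathers potassium channels at the juxtaparanode and is a well-known gene of epilepsy and autism. It was at 199, 202, 196, 199.9 and 199.8 CPM in the void mice and at 179, 180.3, 198, 168 and 182 CPM in the DHT mice. The void mice were nearly equal, with a coefficient of variation of 1.13%, against 6.04% with DHT. DHT 3 lay inside the void range, and the other 4 DHT mice were below it. DHT minus void was -0.13 on the log2 scale with a standard error of 0.05 (adjusted p = 0.177). DESeq2 gave an adjusted p of 0.0306, and over the 7 alternatives the adjusted p ran from 0.0306 to 0.896. The ratio of Cntn2 to Cntnap2 per length was 0.884 ± 0.168 with void (0.717 to 1.07) and 1.0 ± 0.108 with DHT (0.841 to 1.14; SD, n = 5 each), so the 2 ranges overlapped.

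A potassium channel subunit that this complex holds had the lowest p of the 24 listed genes of the node, paranode and juxtaparanode. It was picked out for that reason. Kcna2, a subunit of the juxtaparanodal channel, was at 414 ± 9.03 CPM (SD, n = 5) in void mice and 360.4 ± 17.3 CPM (SD, n = 5) in DHT mice, and all 5 DHT mice were below the lowest void mouse. The difference was -0.20 on the log2 scale with a standard error of 0.05 (adjusted p = 0.0349), past the limit of 0.05. The call held in 1 of the 10 fits that left out a mouse, the one without DHT 2 (adjusted p 0.0249 to 0.0904 over the 10), while the log2 fold change stayed between -0.24 and -0.19. The call was also lost with no filter on low counts (-0.21, adjusted p = 0.0917), with the choroid plexus covariate (-0.18, 0.760) and with normalization on neuron genes (-0.10, 0.450). Its partner subunit Kcna1 was at 139 ± 12.7 CPM in void mice and 137 ± 5.24 in DHT mice (log2 fold change -0.02, standard error 0.07) and was looked up after Kcna2 was seen.

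Among the contactins outside the node, Cntn5 was the member furthest from 0. Contactin 5 (also called NB-2) is known for its part in the auditory pathway and in synapse formation. Cntn5 was at 5.79, 6.615, 5.49, 5.13 and 6.35 CPM in void 4, 5, 9, 10 and 11 and at 4.34, 4.64, 4.57, 4.58 and 3.66 CPM in DHT 1, 2, 3, 5 and 6. Every DHT mouse was below every void mouse, and 4 of the 5 DHT mice lay within a narrow band, with DHT 6 below them.

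The mean of Cntn5 with DHT was 25.8% below the mean with void, and the log2 fold change was -0.43 with a standard error of 0.11 (adjusted p = 0.0408). Cntn5 was the 1 member past the limit of 0.05. It also had the lowest level per length, with 123 to 274 counts per library. The call was lost in 8 of the 10 fits that left out a mouse: it held without void 9 and without DHT 2, and the adjusted p ran from 0.0451 to 0.0987, with log2 fold changes of -0.48 to -0.37. It was also lost with library size alone (-0.42, adjusted p = 0.0585), with no filter (-0.44, 0.0801), with normalization on neuron genes (-0.33, 0.174) and with the choroid plexus covariate (-0.26, 0.860), while DESeq2 gave an adjusted p of 0.00293. The antisense gene Gm32710, which overlaps 290 bases of Cntn5 exons, had 1 to 5 counts.

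Cntn3 (BIG-1) and Cntn4 (BIG-2) are close relatives that promote neurite growth, and contactin 4 binds the amyloid precursor protein. Cntn3 was at 32.8, 40.4, 30.3, 32.65 and 31.55 CPM in the void mice and at 27.1, 30.8, 30.1, 27.9 and 25.4 CPM in the DHT mice. Void 5 stood above the other 4 void mice, and DHT 2 was the 1 DHT mouse inside the void range. DHT minus void was -0.25 on the log2 scale with a standard error of 0.09 (adjusted p = 0.138).

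Cntn4 was at 38.8, 39.1, 37.2, 33.65 and 41.9 CPM in the void mice and at 29.3, 40.5, 33.9, 31.75 and 31.7 CPM in the DHT mice. DHT 2 was above 4 of the 5 void mice, so the groups overlapped. DHT minus void was -0.19 on the log2 scale with a standard error of 0.09 (adjusted p = 0.306).

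Cntn6 encodes contactin 6 (NB-3), best known from the cerebellum and the corticospinal tract. It was at 10.6, 12.5, 7.63, 6.83 and 9.62 CPM in the void mice and at 6.42, 9.13, 10.2, 7.63 and 7.41 CPM in the DHT mice. The groups overlapped along most of their range, with DHT 1 the lowest and void 5 the highest. The spread was the widest of the members with void, a coefficient of variation of 24.2%. Its log2 fold change was -0.21, and the standard error was 0.17 (adjusted p = 0.622). It was -0.09 without void 5 and -0.33 without DHT 3.

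Cntnap4 encodes Caspr4, a presynaptic protein of inhibitory interneurons and dopamine neurons. It was at 35.5, 37.4, 36.3, 32.8 and 36.3 CPM in void 4, 5, 9, 10 and 11 and at 24.4, 32.5, 31.8, 32.35 and 28.1 CPM in DHT 1, 2, 3, 5 and 6. The groups did not overlap, but the gap was narrow: void 10 lay just above DHT 2. The log2 fold change was -0.26 with a standard error of 0.08 (adjusted p = 0.107), and DESeq2 gave an adjusted p of 0.0287 (0.0287 to 0.869 over the 7 alternatives).

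The 10 interneuron markers, which include Gad1, Pvalb and Sst, summed to 1128 to 1146 CPM with void. With DHT they summed to 876 to 1233, and DHT 1, the lowest mouse for Cntnap4, was also the lowest for that sum. By contrast DHT 6, next lowest for Cntnap4 at 28.1 CPM, had the highest sum of the 10 mice, 1233. Of these markers 8 were lower and 0 were called. Their part in the Cntnap4 values was not tested. Gm45904, which overlaps 503 bases of Cntnap4 exons on the other strand, had 0 to 9 counts against 889 to 1678 for Cntnap4.

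Cntnap5a is 1 of 3 mouse genes that stand in place of the single human CNTNAP5, and Cntnap5a, Cntnap5b and Cntnap5c are the only family genes whose exons share runs of 50 bases with one another. Of the 10896 distinct runs of 50 bases in Cntnap5a transcripts, 104 also occur in Cntnap5b or Cntnap5c, and none of the other 9 members shared such a run with a family gene. Reads of 100 bases were sequenced, so the most alike stretch of that length was sought between coding sequences and is shown for the closest pairs. Cntnap5a and Cntnap5b match at 99 of 100 bases in coding bases 1459 to 1558, which span exons 9 and 10 (GRCm38, plus strand; Cntnap5a chr1:116184440-116184455 and chr1:116188264-116188347, Cntnap5b chr1:100160172-100160187 and chr1:100164068-100164151). Cntnap5a and Cntnap5c match at 99 of 100 in coding bases 1576 to 1675, which span exons 10 and 11 (Cntnap5a chr1:116188365-116188435 and chr1:116221842-116221870, Cntnap5c chr17:58104698-58104768 and chr17:58138613-58138641). The capital letter marks the base that differs within each pair.
Cntnap5a, exons 9 and 10: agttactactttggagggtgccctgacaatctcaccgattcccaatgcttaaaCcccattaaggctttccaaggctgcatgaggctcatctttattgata
Cntnap5b, exons 9 and 10: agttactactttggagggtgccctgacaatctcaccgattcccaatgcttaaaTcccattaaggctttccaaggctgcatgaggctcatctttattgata
Cntnap5a, exons 10 and 11: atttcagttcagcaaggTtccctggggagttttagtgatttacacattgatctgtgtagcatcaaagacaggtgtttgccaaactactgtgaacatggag
Cntnap5c, exons 10 and 11: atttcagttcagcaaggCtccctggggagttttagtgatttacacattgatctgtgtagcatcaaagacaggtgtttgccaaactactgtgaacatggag

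A 100-base read that covers such a stretch differs from the paralog by 1 base, and how the counting treated reads that match several genes is not given in the sources used here, so the split of such reads between the Cntnap5 genes is uncertain. Cntnap5b and Cntnap5c matched at up to 98 of 100 bases. Outside the Cntnap5 genes the closest pairs were Cntnap4 and Cntnap3, at 88 of 100, and Cntn3 and Cntn4, at 85.

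Cntnap5a was at 73.8, 90.4, 70.4, 66.7 and 94.6 CPM in void 4, 5, 9, 10 and 11 and at 60.55, 73.2, 64.7, 64.2 and 57.6 CPM in DHT 1, 2, 3, 5 and 6. Void 5 and void 11 were far above the other void mice, and DHT 2 was the 1 DHT mouse inside the void range. The log2 fold change was -0.31 with a standard error of 0.10 (adjusted p = 0.123). With the choroid plexus covariate it was 0.0042. Choroid plexus markers summed lowest in void 5 and void 11, at 112 and 117 CPM, the mice in which Cntnap5a was highest. The other void mice did not keep this order: void 10, lowest of the void mice for Cntnap5a, had 432 CPM, below void 4 at 902 and void 9 at 1814. The part of choroid plexus content in the Cntnap5a values was not tested.

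The remaining Caspr genes had fold changes in the same range. On the log2 scale Cntnap5b was at -0.31 with DHT (adjusted p = 0.206, standard error 0.12), Cntnap3 at -0.29 (standard error 0.19) and Cntnap5c at -0.05 (standard error 0.15). With the choroid plexus covariate Cntnap3 was at 0.14, and with normalization on neuron genes Cntnap5c was at 0.04. None of the 3 was called by edgeR or DESeq2, and 1, Cntnap5b, had an unadjusted p under 0.05.

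**Figure D2:**
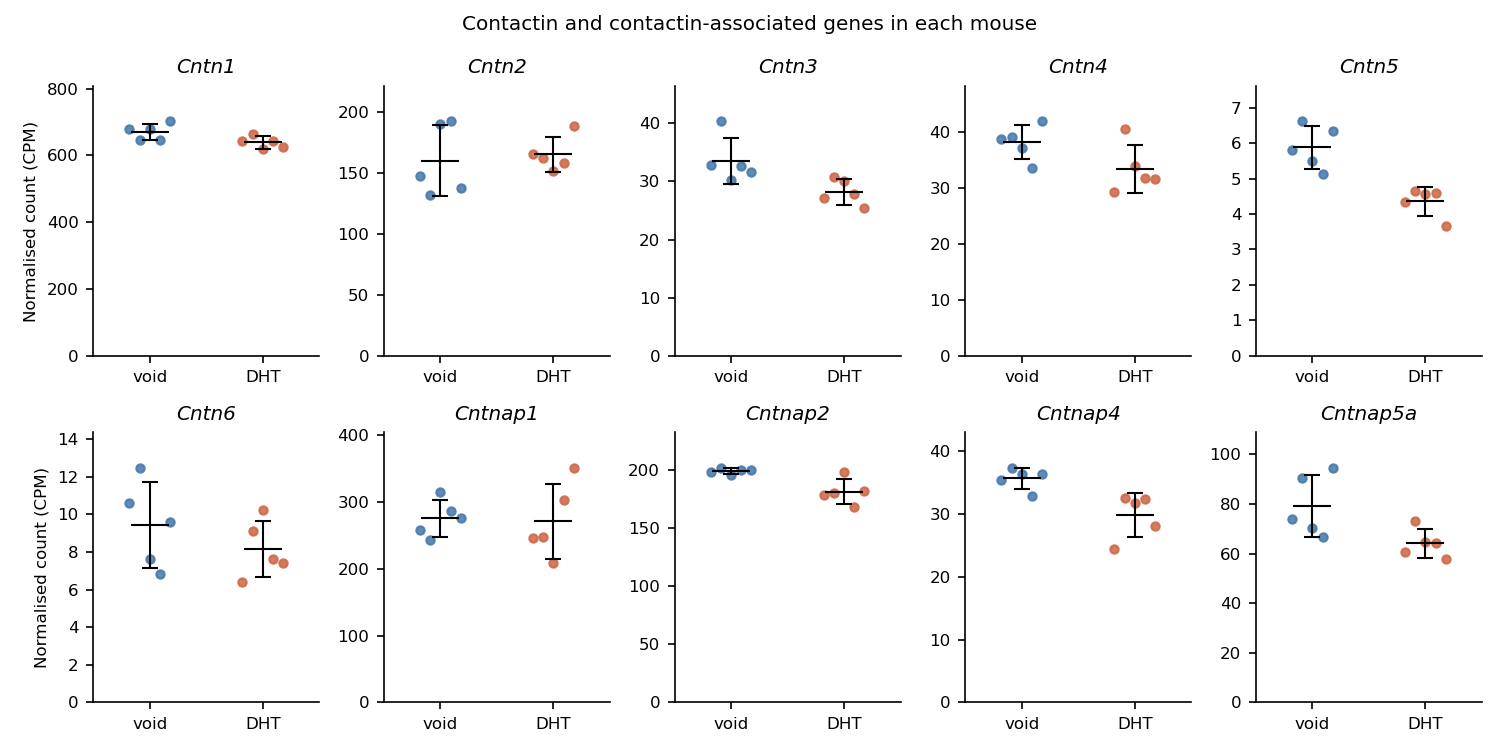
Normalised counts of the 10 members by mouse. The vertical axis is CPM and starts at 0, each point is 1 mouse (blue void, orange DHT; 5 per group), and the black lines are mean and SD. The groups do not overlap for Cntn5 and Cntnap4, and the void mice lie on both sides of the DHT mice for Cntn2.

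Across the list, 9 of the 10 members were lower with DHT and the median log2 fold change was -0.20, where 47.6% of the 17622 genes tested were below 0 and the median over those genes was 0.0094. All 10 members passed the filter on low counts. At an adjusted p under 0.05, 1 member was called, Cntn5, against 5.48% of all genes in either direction and 0.261% in the lower direction. With the study's added limit of a log2 fold change beyond 1, 0 members were called, against 2.19% of all genes. At an unadjusted p under 0.05, 5 members were lower (Cntn3, Cntn5, Cntnap2, Cntnap4 and Cntnap5a), against 4.22%. Every DHT mouse was below every void mouse for 2 members, against 0.88%. DESeq2 called 3 members lower (Cntn5, Cntnap2 and Cntnap4), against 1.07% of the 20917 genes it tested. Since results of this comparison were known when the genes were listed, nothing is read from these counts.

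These values moved with 2 choices about what the tissue contained. With a choroid plexus score as covariate the median of the members was -0.10, and 0 genes of the whole table were called. With library sizes taken from neuronal markers it was also -0.10, while the median of all genes shifted to 0.10. Under the covariate Cntn2 was at -0.23 and Cntn6 at 0.09, and under the neuronal scaling Cntn1 was at 0.03 and Cntnap1 at 0.05, in each case across 0 from the value given above. Cntn3, Cntn4, Cntn5, Cntnap2 and Cntnap4 stayed below 0 under all 7 alternatives and in all 10 fits without 1 mouse.

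**Figure D3:**
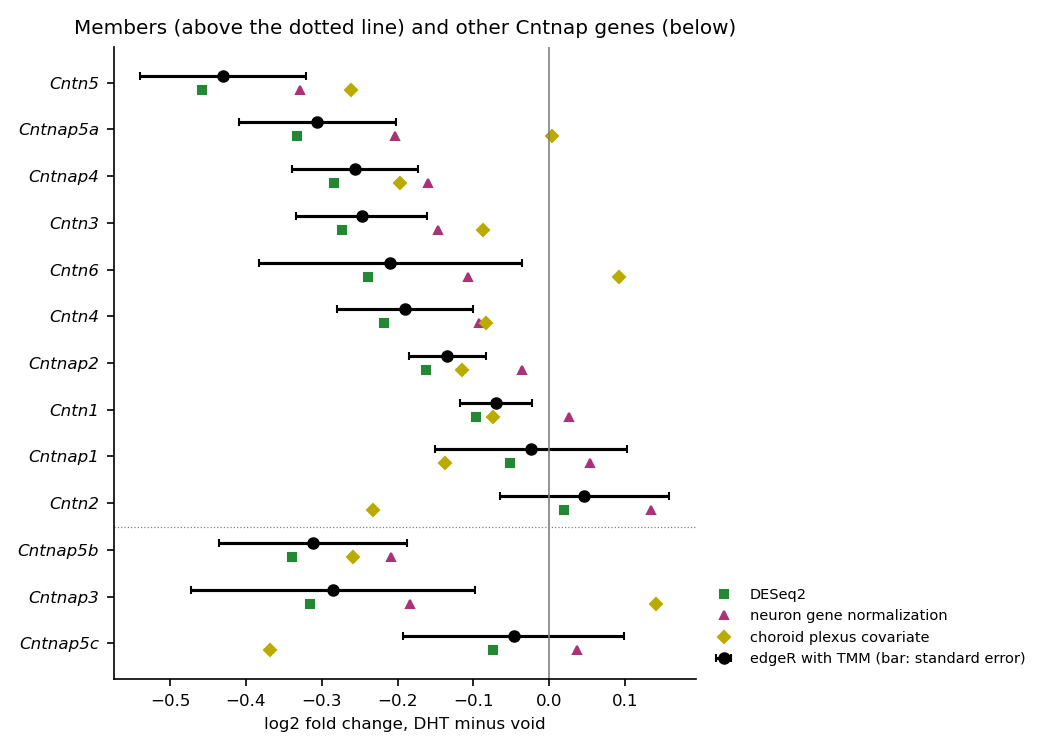
Log2 fold changes (DHT minus void) of the 10 members, above the dotted line, and of Cntnap5b, Cntnap3 and Cntnap5c, below it. Black points are the edgeR values with standard errors, and the coloured points are DESeq2, normalization on neuron genes and the choroid plexus covariate. Cntn5 lies lowest at -0.43, and Cntnap5a, Cntn6, Cntn2 and Cntnap3 change side with the covariate.

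Within groups the members did not vary as 1 block. After the group mean was subtracted from log2 CPM, the 45 pairs of members had Pearson correlations over the 10 mice from -0.891 to 0.866 with a median of 0.173, and 27 were above 0. The highest was between Cntn5 and Cntnap5a (r = 0.866, Spearman's rho = 0.939, and r = 0.894 without the 2 mice furthest from the median of Cntn5). Both were high in void 5 and void 11 and low in void 10 and DHT 6. Cntn2 ran the other way. It correlated with Cntn5 at -0.891 (rho = -0.818, and r = -0.896 without 2 mice), with Cntnap5a at -0.821 (rho = -0.867; -0.712) and with Cntn6 at -0.816 (rho = -0.867; -0.671).

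The partners on the axon had weak correlations. Cntn1 and Cntnap1 had r = 0.095 (rho = 0.224, and r = 0.005 without 2 mice). Cntn2 and Cntnap2 had r = -0.190 (rho = -0.358, and r = -0.193 without 2 mice). The coefficient of variation was 3.62% with void and 2.86% with DHT for Cntn1, and 1.13% and 6.04% for Cntnap2. With so little spread, a weak correlation says little about whether partners track each other. These correlations are descriptions. All points of a mouse share 1 library and 1 dissection, and the mean log2 deviation of the 12 myelin markers was 0.31 in void 10, 0.09 in void 9 and -0.19 in void 11, mice in which Cntn2 deviated by 0.29, 0.27 and -0.19. In DHT 6 and DHT 5, by contrast, Cntn2 deviated by 0.19 and -0.06 while the myelin mean deviated by 0.0026 and 0.05. The part of these shared sources in the correlations was not tested.

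**Figure D4:**
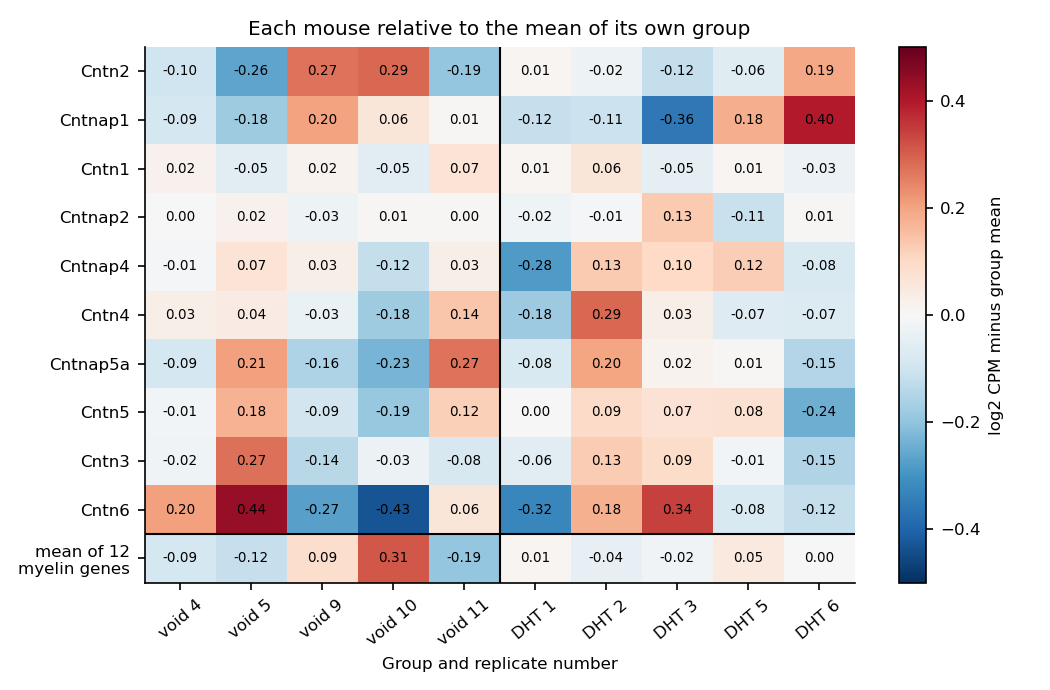
Each mouse relative to its own group. Columns are mice, rows are the 10 members with the mean of 12 myelin markers at the bottom, and each cell gives log2 CPM minus the group mean (red above, blue below). Cntn2 is high in void 9 and void 10, where Cntnap5a, Cntn5, Cntn3 and Cntn6 are below their group mean.

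Across the 17272 genes compared, the gene most like each member within groups was named as well, by the highest Pearson correlation over the 10 mice, and nothing is implied about shared function. It was Gpd2 for Cntn1 (r = 0.936), Dnajc16 for Cntn2 (0.950), Tmem196 for Cntn3 (0.979), Spin1 for Cntn4 (0.969) and Cbfb for Cntn5 (0.966). It was Commd7 for Cntn6 (0.977), Rnf44 for Cntnap1 (0.992), Atxn7 for Cntnap2 (0.955), Dcn for Cntnap4 (0.962) and Ppm1l for Cntnap5a (0.941). Spearman's rho was 0.903 to 0.988 for 9 of these, and r without the 2 mice furthest from the member's median was 0.888 to 0.985. The exception was Atxn7 with Cntnap2, where rho was 0.612 and r without 2 mice 0.323, so that likeness rests on the 2 mice left out. The highest of so many correlations over 10 mice is high by construction.

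Genes that work with contactins were read from lists written from known roles, with earlier results of these data already known. Over all genes tested, 47.6% were below 0, 4.22% were lower at an unadjusted p under 0.05 and 0.261% were called lower. Every DHT mouse was below every void mouse for 0.88%, and DESeq2 called 1.07% lower. In the other direction 920 genes were called higher with DHT, against 46 lower. Shares for an unadjusted p or for separated groups in that direction are not given here. Of the 12 neuronal markers, 11 were lower, with a median of -0.09. Nothing is read from the counts in these lists. Of 24 genes of the node, paranode and juxtaparanode, 19 were lower with DHT, with a median log2 fold change of -0.11, and 1 was called, Kcna2. At an unadjusted p under 0.05, 6 were lower and 1 was higher. The 3 with the lowest p were Kcna2, Dlg2 and Adam22. The 1 higher gene was Mag, which is also on the myelin list. Dlg2, a scaffold that binds the juxtaparanodal channels, was at 558 ± 28.3 CPM in void mice and 498 ± 28.8 in DHT mice (SD, n = 5 each, log2 fold change -0.17, standard error 0.06, adjusted p = 0.131). Adam22, a receptor of the Lgi proteins in the same complex, was at 307 ± 15.3 and 277 ± 14.8 CPM (-0.15, 0.06, adjusted p = 0.174).

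Binding partners of contactins, such as L1 family proteins, amyloid precursor proteins and receptor phosphatases, were divided. The receptor phosphatase gene Ptprg was on the list but is not analysed here. Of 22 tested, 11 were lower and 11 higher, with a median of 0.01, and 0 were called by edgeR (1 lower and 1 higher at an unadjusted p under 0.05, and 1 lower by DESeq2). The 3 with the lowest p were L1cam, Itgb1 and Cask. L1cam, an adhesion molecule of axons, was at 158 ± 8.26 CPM in void mice and 130.3 ± 16.2 in DHT mice (log2 fold change -0.28, standard error 0.08, adjusted p = 0.0787). Itgb1, the integrin beta 1 subunit, was at 73.9 ± 3.07 and 87.1 ± 9.24 CPM (0.24, 0.07, adjusted p = 0.0854). All 5 DHT mice were above the highest void mouse, a separation for which no share over all genes is given here. Cask, a scaffold that binds neurexin-like tails, was at -0.11 on the log2 scale (adjusted p = 0.298, standard error 0.05).

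Other immunoglobulin-superfamily adhesion genes were mostly lower: 16 of 19, with a median of -0.13. None were called by edgeR (5 lower and 1 higher at an unadjusted p under 0.05), and DESeq2 called 2 lower. The 3 with the lowest p were Alcam, Cadm1 and Mdga2. Alcam, an axonal adhesion molecule, was at 182 ± 16.8 CPM in void mice and 149.5 ± 17.8 in DHT mice (log2 fold change -0.28, standard error 0.09, adjusted p = 0.0936). Cadm1, a synaptic adhesion molecule, was at 334 ± 5.92 and 291 ± 31.0 CPM (-0.20, 0.07, adjusted p = 0.148), with all 5 DHT mice below the lowest void mouse. Mdga2, which restrains neuroligins, was at -0.16 on the log2 scale (adjusted p = 0.174, standard error 0.06).

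**Figure D5:**
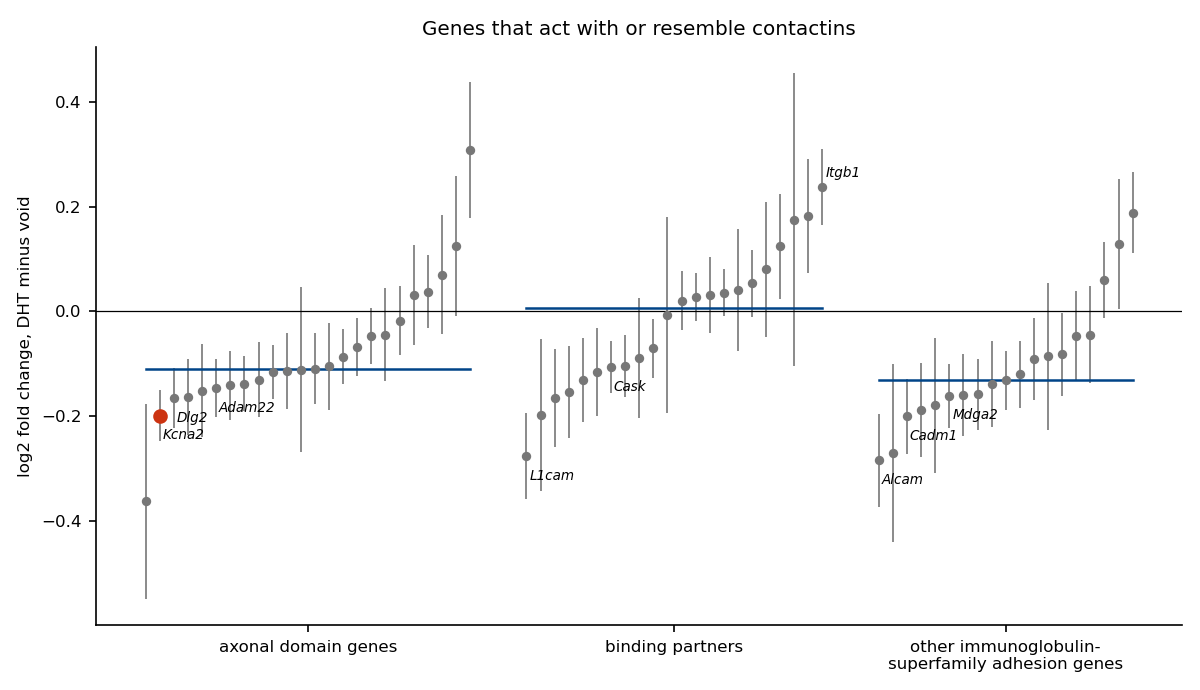
Log2 fold changes (DHT minus void, with standard errors) of genes that act with or resemble contactins, in 3 lists sorted by value. The blue line is the median of each list, and the red point, Kcna2, is the 1 gene with an adjusted p under 0.05. Named are the 3 genes of each list with the lowest p.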

How the data were processed

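Bulk RNA-seq of hippocampus was measured in 10 female P301S mice, 5 with void and 5 with DHT implants. The authors deposited raw counts per gene. Per the paper's methods, 100 bp paired reads were trimmed and filtered with HTStream and mapped to mm10 with STAR (2.7.10b). The submitters' processing notes name mm39 and GRCm39 instead. The annotation release, the strand setting and the handling of reads matching several genes are not given in the sources used here.

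Of 56884 identifiers, 51948 had a symbol in GENCODE M21 (GRCm38), and 51911 of these carried a later version in the table, so that reference served for names, exon lengths and sequence, and the coordinates printed are its own.

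TMM normalization and filterByExpr by group, in edgeR (4.0.16, R 4.3.3), left 17622 genes. These were compared by glmQLFTest, the quasi-likelihood test, and p values were adjusted by Benjamini-Hochberg over all of them. Genes with an adjusted p under 0.05 were called. Standard errors were derived from the F statistic (size of the log2 fold change over the root of F). The study names DESeq2, which here (1.42.0) was an alternative. The others were DESeq2's size factors in edgeR, library size alone, no filter beyond 1 count in total, at least 10 counts in every library, a choroid plexus score as covariate, normalization on 12 neuronal markers and leaving out each mouse. Deviations used log2 CPM with a prior count of 2. The fits were tested on simulated data. Labels do not say how libraries map to cages or litters. The paper states that mice shared housing with others of the same treatment, so a cage effect cannot be told apart from one of the implant. The p values set the difference between groups against the spread between these mice.

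The members and all gene lists were chosen with earlier results of these data known. Named are every member, the 3 other Cntnap genes, each list gene called or, with fewer than 3 called in a list, its 3 lowest p values, and the gene most like each member. Kcna1 was named outside this rule. The result for 1 listed gene is not analysed here.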

Additional observations from a re-analysis of the deposited data

Results flagged for a closer look

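Cntn3 in void 5 stood apart from the other void mice. At 40.4 CPM against 32.8 in the nearest mouse, the gap was 0.747 of the range of the 5 void mice, above Dixon's limit of 0.71 for 5 samples. It was the 1 such value in 26 groups of 5 examined (10 members and 3 other Cntnap genes, in 2 treatments), where chance gives about 1.3. Without void 5, the log2 fold change of Cntn3 was -0.17.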

How the results depend on the processing

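No paired analysis was possible. The paper states that littermates were randomized to the implants, but the labels do not give the litter of a mouse. Mouse number 5 is the one number that both groups carry, and nothing in the labels says that it marks a pair. The count of members called, 1, became 3 with DESeq2, 0 with library size alone, no filter, the choroid plexus covariate or normalization on neuron genes, and 0 to 1 without 1 mouse. The median log2 fold change of the members, -0.20, was -0.10 with the covariate and -0.10 with the neuronal normalization, and -0.26 to -0.15 without 1 mouse. The partner lists, with 1 gene called, had 4 with DESeq2, 2 with its size factors, 0 with no filter or with the covariate, and 0 to 1 without 1 mouse. Over all genes, 920 were called higher and 46 lower. The covariate left 0 and 0, DESeq2 called 224 lower, the neuronal normalization 7 lower, and fits without 1 mouse 351 to 1072 higher and 5 to 77 lower. The longest transcript kept 5 members at their rank, DHT mice alone 8, and void mice alone or any 9 mice all 10.

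Of 374 fold changes of single named genes under alternatives, 327 kept their direction and side of the limit, 24 lost the call, 8 gained it and 15 changed sign. Most of these genes were not called to begin with, and only Cntn5 and Kcna2 had a call to lose. Cntn5 kept it under 3 of the 7 alternatives and in 2 of the 10 fits without 1 mouse. Kcna2 kept it under 4 of the 7 and in 1 of the 10. With the covariate the changes of sign were Cntn2 (-0.23), Cntn6 (0.0916), Cntnap5a (0.0042) and Cntnap3 (0.14). With the neuronal normalization they were Cntn1 (0.0256), Cntnap1 (0.0545) and Cntnap5c (0.0374). Without 1 mouse, Cntn2 ran from -0.0297 to 0.12, Cntnap1 from -0.13 to 0.0314 and Cntnap5c from -0.17 to 0.0053. The neuronal normalization rescales all genes of a library alike, and the median over all genes moved from 0.0094 to 0.10 with it. What lies behind the other changes was not tested. Cntn5 had the fewest counts of the members, 123 in its lowest library.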
